A study of Mus musculus with 37 samples.

Results

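The translation initiation and elongation factors were examined in a list of open reading frames (ORFs) called from ribosome footprints of mouse dendritic cells. A family is all ORFs listed under 1 gene name, and the families whose names begin with Eif1 to Eif6, Eef1 or Eef2 were taken, leaving out the Eif2ak kinases. This gave 111 ORFs in 55 families, of 22367 ORFs in 10418 families in the whole list. The name pattern also took 4 Argonaute genes listed under their older names, Eif2c1 to Eif2c4, which belong to RNA silencing and are not initiation factors. It took 5 regulators and related proteins as well. The other 46 families are called factor subunits here, although they include Eef1e1 and Eif4a3, which belong to other complexes. Members were chosen by name and by no measured value.

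The list was made for 37 footprint libraries of bone marrow-derived dendritic cells from C57BL/6J mice aged 6 to 8 weeks. Lipopolysaccharide (LPS), a bacterial component that activates these cells, was given at 100 ng/mL and the cells were taken at 8 times between 0.5 and 12 h. With cycloheximide, which halts elongating ribosomes, at 100 ug/mL for 1 min, there were 16 LPS libraries, 8 mock libraries and 2 naive libraries. Without an inhibitor there were 8 LPS libraries and 1 naive library. A library of mixed LPS times was made after 5 min of 1 ug/mL harringtonine, and another after 30 min of 50 ug/mL lactimidomycin. These drugs leave ribosomes stalled at or near start codons. These cultures are grown from marrow and can hold other cells. The list named 11 of 12 dendritic cell markers, 7 of 8 macrophage or monocyte markers, 7 of 7 neutrophil markers, 3 of 3 fibroblast markers, 2 of 3 mast cell markers, 1 of 3 B cell markers and 0 of 3 T cell markers, and which cells gave each footprint was not tested. The list holds no value per library, so no difference between LPS and mock cells, or between inhibitors, could be given, and no test was made.

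Eukaryotic translation starts when eIF2 brings the initiator tRNA to the small ribosomal subunit, eIF4 proteins bring that subunit to the capped mRNA with eIF3, and the complex scans for a start codon. eIF1 and eIF5 act against each other in how strictly that codon is chosen. Many of these genes are themselves known to be controlled at translation, through short ORFs in the leader (the mRNA before the coding sequence) or through leader sequences that respond to growth signals. An upstream ORF takes scanning ribosomes before they reach the coding sequence, and a second in-frame start gives a protein with another N-terminus.

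In each family the longest ORF was taken as the main ORF, and the others were placed against it by position and frame. The score of an ORF is the authors' own, a whole number without unit that ran between 500 and 991 in this list, and is used here only to rank ORFs within the list. Its relation to expression and to depth is not given, and a high score is not a level. ORFs that begin at a common start often carry a common score: this was so for 9 of 14 such starts of the translation factors, and for 2053 of 2749 in all families. Shares have exact Clopper-Pearson 95% intervals over families, which cover counting error only.

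The main ORFs of the translation factors carried high scores. Their median was 969, with quartiles of 918 and 986, against a median of 926 and quartiles of 800 and 968 over all families. A main score of 900 or more was held by 43 of the 55 factor families, a share of 78.2% (65.0 to 88.2), where 56.7% of all families did so. Taking the best-scoring ORF of each family, 48 of 55 reached 900, a share of 87.3% (75.5 to 94.7), where 65.1% of all families did. The cytosolic ribosomal proteins stood above both, with a median of 987 over 79 families, and the aminoacyl-tRNA synthetases, which charge tRNAs with amino acids, lay between at 946.5 over 20 families. The interval of the factors' share did not reach the share of all families, which is a description of this list and not a test between sets.

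The start selection and scanning proteins had main scores of 979 for Eif1, 989 for Eif1a, 991 for Eif1ax, 865 for Eif1b and 958 for Eif5. The score of Eif1ax, like that of Eif3l, was the highest value found in the list, which other families also reached. A lower main score was held by 98.5% of all families. Eif1 promotes accurate start codon choice, Eif1a and Eif1ax encode eIF1A, which works beside it in the decoding site, and Eif5 triggers GTP hydrolysis by eIF2 once a start codon is found. Only Eif1b, a close relative of Eif1, fell under 900 in this group.

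The eIF2 group was scored evenly. The 3 subunits of eIF2 had main scores of 990 for Eif2s1, the subunit that stress kinases phosphorylate, 934 for Eif2s2 and 969 for Eif2s3x. Eif2a and Eif2d, whose products are reported to deliver tRNA to the ribosome without eIF2, had 986 and 952. The 5 subunits of eIF2B, which reloads eIF2 with GTP, had 949 for Eif2b1, 962 for Eif2b2, 948 for Eif2b3, 915 for Eif2b4 and 970 for Eif2b5, the catalytic subunit. All 10 main ORFs of eIF2, its substitutes and eIF2B thus lay at 915 or above.

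The eIF3 complex, the largest initiation factor, had 13 families. Its main scores ran between 949 and 991 in 10 of them, with Eif3a, the scaffold subunit, at 949 over 1344 codons and Eif3l at 991 over 564 codons. The other 3 were far lower, at 664 for Eif3h, 579 for Eif3m and 517 for Eif3k. In Eif3k and Eif3m a shorter ORF at the same stop scored 944, as described with the in-frame starts, whereas Eif3h had no other ORF. Of the 13 families, 11 had a single ORF, where 43.7% of all families did. None of the 13 had an ORF upstream of or over the main start, where 20.2% of all families had one. Again, 13 families are too few to show a difference from that last share.

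The eIF4 group, which binds the cap, unwinds the leader and bridges mRNA and ribosome, divided by type of protein. Its 5 cap-binding and helicase-linked members scored high, at 990 for Eif4e, the cap-binding protein, 987 for Eif4e2, a relative of it, 985 for Eif4b, 989 for Eif4h and 956 for Eif4a3, a helicase of the exon junction complex. The 3 scaffold members scored lower, at 756 for Eif4g1, 762 for Eif4g2 and 852 for Eif4g3. The 8 families held 31 of the 111 ORFs, and 2 of them had a single ORF, where 43.7% of all families did.

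The elongation factors had main scores of 988 for Eef1a1 and 955 for Eef1a2, the proteins that bring aminoacyl-tRNA to the ribosome. The score of Eef2, which moves the ribosome along the mRNA, was 985. The exchange factor subunits had 990 for Eef1b2, 989 for Eef1g and 594 for Eef1d, and Eef1e1, a protein of the multisynthetase complex, had 969. Eef1d was the only low one of the 7, and it too had another start at the same stop, with a score of 985. None of the 7 had an ORF upstream of or over its main start, where 20.2% of all families had one, and so few families cannot show a difference from that share. Of the late acting factors, Eif5b, which joins the subunits, scored 979, and Eif5a, which helps ribosomes through difficult stretches, 978. Eif6, which keeps the large subunit apart, scored 513 at its longest form and 896 at a 245-codon form with the same stop. A low main score is that of the longest ORF listed and need not be the highest of its family.

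The 5 regulators and related proteins had main scores of 961 for Eif4ebp1 and 976 for Eif4ebp2, both inhibitors of eIF4E, 955 for Eif4enif1, the eIF4E transporter, 911 for Eef2k, the kinase of eEF2, and 898 for Eif1ad. The Argonautes had 732 for Eif2c1, 986 for Eif2c2, 921 for Eif2c3 and 636 for Eif2c4. Without these 9 families the median main score of the remaining 46 was 969.5, close to that of all 55.

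**Figure D1:**
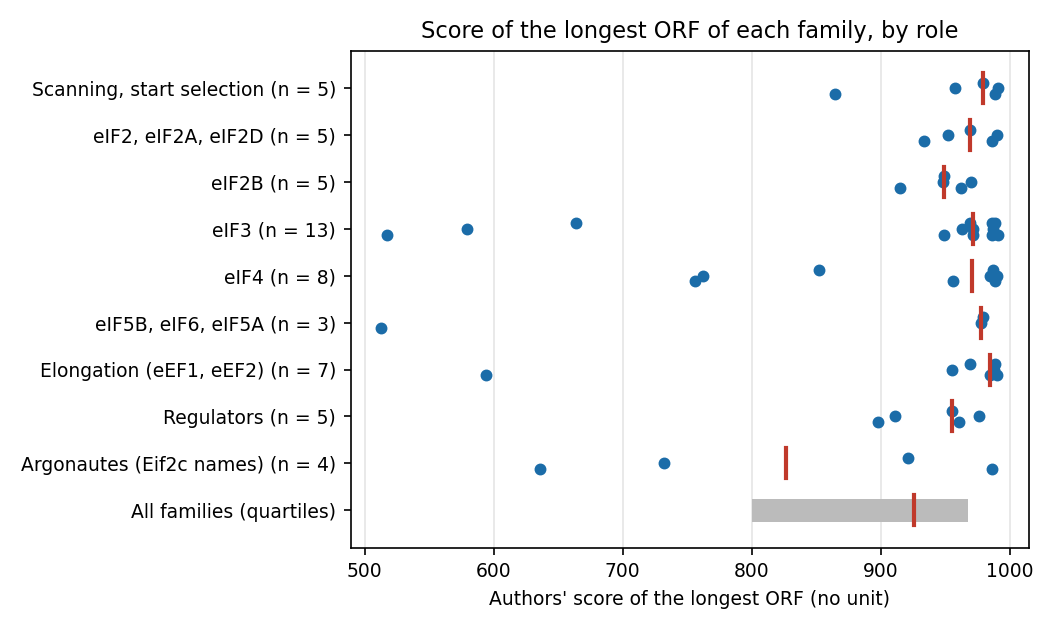
Score of the longest ORF of each translation factor family, 1 point a family, with families grouped by role down the page and the authors' score, which has no unit, along the axis. Red bars are group medians and the grey box gives the quartiles of all 10418 families. Points give the longest ORF only. Shorter forms at the same stop reached 896 in Eif6, 944 in Eif3k and Eif3m, 985 in Eef1d and 830 in Eif4g1. Most points lie above 900, and 12 lie below it, those of Eif6, Eif3k, Eif3m, Eef1d, Eif2c4, Eif3h, Eif2c1, Eif4g1, Eif4g2, Eif4g3, Eif1b and Eif1ad from left to right.

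Leaders, counted as listed transcript bases before the main start, differed between the complexes. Their median was 165 bases in the translation factors, with an interval of 90 to 207, against 186 bases over all families, a value inside that interval. The 13 eIF3 families had a median of 56 bases and a range of 17 to 176. The 5 eIF2B families had a median of 80 bases, with 44 for Eif2b1, 49 for Eif2b2, 80 for Eif2b3, 116 for Eif2b4 and 97 for Eif2b5. No leader of these 18 families reached the median of all families. The start selection proteins had longer ones, between 205 bases for Eif1b and 541 for Eif5.

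The shortest leaders belonged to Eif3f with 17 bases, Eif2s3x with 18, Eif4h with 29, Eef1e1 with 35, and Eif3g and Eif3l with 37 each. The 5 longest were 2409 bases for Eif4e, 1989 for Eif4g3, 1242 for Eif4g2, 896 for Eif2c1 and 688 for Eif1ad. In all, 11 of 55 factor families had a leader under 50 bases, a share of 20.0% (10.4 to 33.0), where 12.2% of all families did. Ribosomal proteins gave 16 of 79, or 20.3%, and the aminoacyl-tRNA synthetases 4 of 20, or 20.0%. Leader lengths follow the authors' transcript models, whose origin is not given in the sources used here, and a truncated or extended model moves them.

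**Figure D2:**
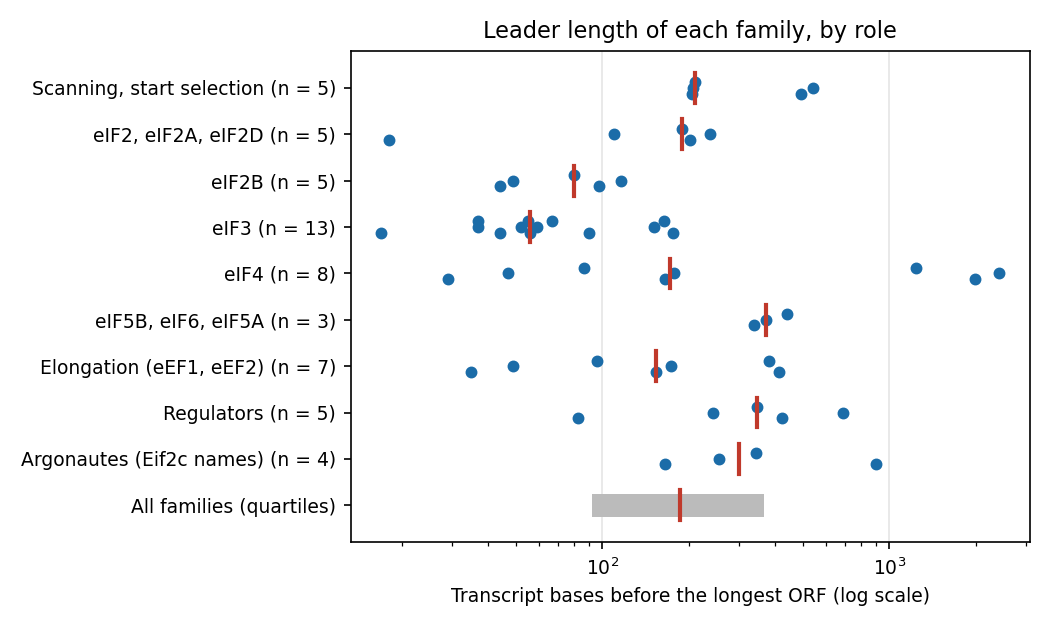
Leader length of the longest ORF of each translation factor family in transcript bases on a log scale, 1 point a family, grouped by role down the page. Red bars are medians and the grey box gives the quartiles of all families, 92 and 365 bases. The eIF3 and eIF2B points lie between 17 and 176 bases, while Eif4e, Eif4g3 and Eif4g2 lie at 1242 bases or more.

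Start codons could be read for 5 main ORFs with short leaders, because RefSeq's windows around gene starts (assembly GRCm38.p6) run 50 bases into the transcript. The 5 sequences are shown to let the start context of these factors be seen, with the ATG found at the listed leader length in capitals and up to 17 bases before it. The coordinates are those of the bases printed, in GRCm38.p6, on the strand named.
Eif3f, chr7:108934415-108934444, plus strand: ctctctttctcggcaagATGgcttctccgg
Eif2s3x, chrX:94212621-94212650, minus strand: ttttctctccgagcaagATGgctgggggtg
Eef1e1, chr13:38658981-38659010, minus strand: aggagctgggccagaagATGgcggcggccg
Eif3l, chr15:79075243-79075272, plus strand: tctggagcgccgtagccATGtcttaccccg
Eif4a3, chr11:119299994-119300013, minus strand: tctgcggaatccggatcATG

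A purine stood 3 bases before the ATG in 5 of these 5, which is a feature of favourable start contexts, where 92.7% of 504 such main ORFs of all families had one. A G followed the ATG in 3 of the 4 windows that reach past it, where 77.1% of 497 did in all families. Eif3l had a T there. The gene starts in the windows of Eif3f and Eif2s3x begin with C and 4 pyrimidines, the beginning of the terminal oligopyrimidine tract that marks growth-controlled mRNAs. These were 2 of 40 factor families with a window. Of 32851 gene starts in the table, 2.51% begin so. That share counts starts and not families, so it cannot be set directly against 2 of 40. A gene start placed a few bases off would hide such a tract, so the other factor families were not shown to lack one. An ATG lay at the listed leader length in 5 of 8 short-leader factor ORFs with a window, where 57.7% of 874 did in all families. At shifts of 1 to 10 bases to either side, between 1 and 14 of the 874 had an ATG. The 3 without a match were Eif2b1, Eif3g and Eif4h.

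Upstream ORFs and ORFs over the main start were found in 8 of the 55 families, a share of 14.5% (6.50 to 26.7), where 20.2% of all families had one. The interval included the share of all families. In 6 families an ORF ended before the main start, where 16.3% of all families had one, and in 3 an ORF ran over it, where 5.30% did. The cytosolic ribosomal proteins had 1 of 79, a share of 1.27%, and the aminoacyl-tRNA synthetases 1 of 20, or 5.00%. The 8 families were Eif5, Eif1a, Eif2d, Eif4g2, Eif4g3, Eef2k, Eif1ad and Eif2c3, so that 5 of them were factor subunits. Those of Eif5, Eef2k, Eif4g2, Eif4g3 and Eif2c3, and the 22-codon ORF of Eif1a, were listed on other transcripts than the longest ORF. Distances to the main start are counted on each ORF's own listed transcript, which holds that start.

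Eif5 had the highest-scoring upstream start of the translation factors. Its 97-codon ORF (mm9 chr12:112776738-112777890) scored 980, against 958 for the main ORF of 429 codons. It began 230 bases before the main start and ran 64 bases past it in another frame. Its stop codon thus lay beyond the main start codon. The main ORF was listed in splice forms of 429 and 375 codons from a common start, both at 958.

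Eef2k, the kinase that slows elongation by phosphorylating eEF2, also had ORFs over its main start. They were 135 and 130 codons long, with scores of 838 and 711, against 911 for the main ORF of 724 codons. They began 218 and 203 bases before the main start at mm9 positions chr7:127986473 and chr7:127986488, and shared a stop at chr7:128002123, 190 bases past the main start. Both upstream starts scored under the main one.

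Eif2d had a 17-codon upstream ORF (mm9 chr1:133049841-133049894) with a score of 910, against 952 for the main ORF, and it stopped 52 bases before the main start. In Eif1a a 22-codon ORF scored 677 and ended 196 bases before the main start. A 7-codon ORF of Eif1a with a score of 779 ended 74 bases before that start, and both lay far under the main score of 989. Eif1ax, which encodes eIF1A from another chromosome and scored 991, had neither. The sources used here do not say how footprints that match both copies were assigned.

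The scaffold genes Eif4g2 and Eif4g3 carried short upstream ORFs, listed on other transcripts than the longest ORF. Eif4g3 had 8 codons at a score of 701, ending 689 bases before the main start. It also had 21 codons at 680 and 31 codons at 598, with a common stop 140 bases before it. All 3 scored under the main ORF, at 852. In Eif4g2 a 16-codon ORF at 931 ended 205 bases before the main start and stood above the main score of 762. Eif4g1, the third scaffold, had no upstream ORF.

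Upstream of Eif1ad, a 48-codon ORF scored 915 and a 20-codon ORF 614. Their common stop lay 21 bases before the main start, the shortest such distance in the set, and the longer one stood above the main score of 898. In Eif2c3, an Argonaute gene, a 31-codon ORF at 952 began 4 bases before the main start and overlapped it by 92 bases, against a main score of 921. A 93-codon ORF at 624 overlapped by 187 bases and a 29-codon ORF at 550 ended 22 bases before the main start.

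An ORF upstream of or over the main start outscored the main ORF in 4 of the 8 families, namely Eif5, Eif4g2, Eif1ad and Eif2c3, a share of 50.0% (15.7 to 84.3), where 41.1% of the 2103 such families in the list did. The 10 ORFs that ended before the main start had a median length of 20.5 codons, against 16 codons for all 2857 such ORFs. Their median distance between stop and main start was 107 bases, against 117 bases over all. Their median score was 690.5, against 776 over all. The 5 over the main start had a median score of 838, against 743 for all 692. The 10 came from 6 families and the 5 from 3 families, so these ORFs are not separate observations.

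**Figure D3:**
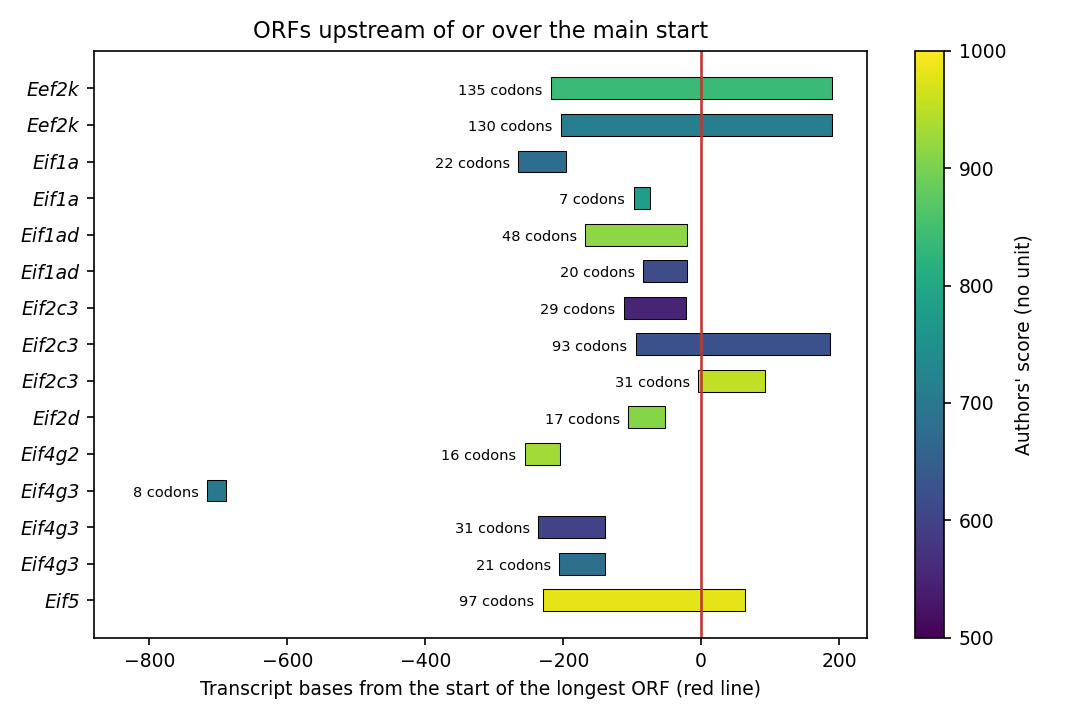
ORFs upstream of or over the main start in the translation factor families, with their length in codons. Each is drawn to scale along its own listed transcript, in bases from the start of the longest ORF (red line). Colour gives the authors' score, which has no unit. The ORFs of Eif5, Eef2k and Eif2c3 cross the line, and the 97-codon ORF of Eif5 is the brightest.

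Another in-frame start with the main stop was listed in 7 of the 55 families, a share of 12.7% (5.27 to 24.5), where 23.0% of all families had one. The interval included that share. The families were Eef1d, Eif3k, Eif3m, Eif6, Eif4g1, Eif4e2 and Eif4ebp2. The other starts of Eef1d, Eif4g1 and Eif4e2 were listed on other transcripts than the longest ORF. Their scores thus do not compare starts of a single mRNA. In 5 of the 7 a shorter form outscored the longest, a share of 71.4% (29.0 to 96.3), where 45.9% of the 2396 such families did. This interval, too, included the share of all such families. Counted as starts, 7 of 9 lay above the score of the longest form and 2 below, against 1316 above, 1779 below and 9 equal among 3104 in all families. Eif6 alone gave 3 of the 7 higher starts, so these are not separate observations.

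In Eif3k the 218-codon form, which starts 9 codons inside the longest, scored 944, against 517 for the longest form of 227 codons. In Eif3m the 374-codon form, 14 codons shorter than the longest, scored 944, against 579 for the form of 388 codons. Both later starts thus lay just under the range of 949 to 991 held by the main ORFs of 10 other eIF3 subunits. Eif6 had shorter forms of 260, 245 and 22 codons with scores of 710, 896 and 585, against 513 for the longest form of 262 codons. Its highest score was thus at the start 17 codons inside the longest form.

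In Eef1d forms of 281 and 257 codons that begin at a common start scored 985, against 594 for the longest form of 299 codons. In Eif4g1 the 1553-codon and 1141-codon forms, which share a start, scored 830, against 756 for the longest form of 1581 codons. The listed transcript of the 1141-codon form does not hold the start of the longest form. The scaffold's difference of 74 points between starts was small beside the 391 points of Eef1d. With the highest-scoring form in place of the longest, only 1 of the 13 eIF3 families, Eif3h at 664, stayed under 900.

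Eif4e2 and Eif4ebp2 went the other way. The 240-codon form of Eif4e2 scored 881, against 987 for its longest form of 245 codons. The 61-codon form of Eif4ebp2, which starts 177 bases inside the longest, scored 534, against 976 for the form of 120 codons. In these 2 families the longest form kept the highest score of its stop.

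**Figure D4:**
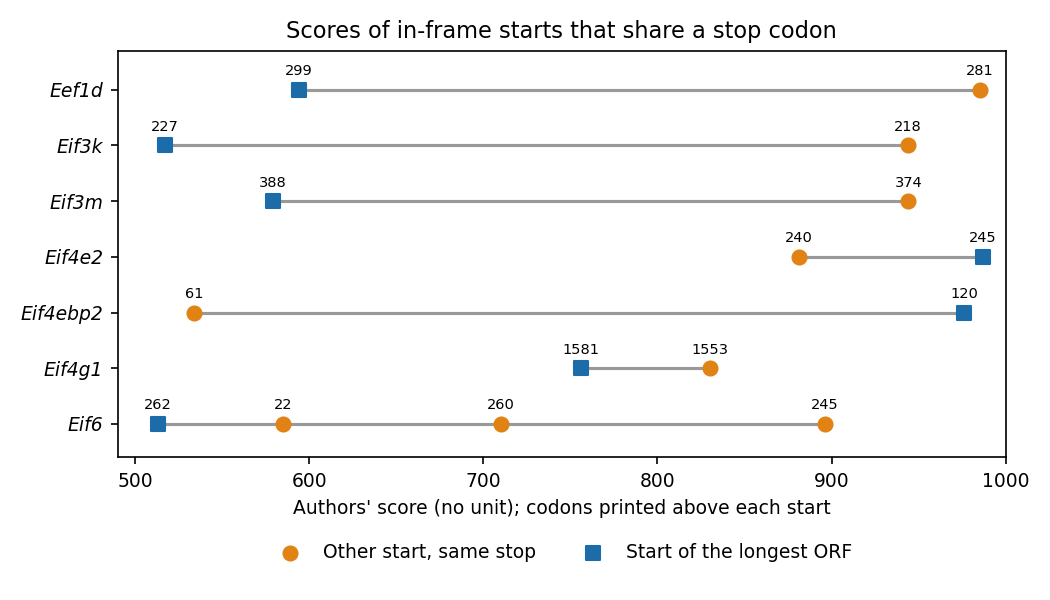
Authors' score, which has no unit, of each start that shares a stop codon with the longest ORF in 7 translation factor families, with the length in codons of the longest form above each point. Orange circles are the other starts and blue squares the start of the longest ORF. The other starts of Eef1d, Eif4g1 and Eif4e2 are on other listed transcripts. In Eef1d, Eif3k, Eif3m, Eif4g1 and Eif6 the circles lie to the right of the square, and in Eif4e2 and Eif4ebp2 to the left.

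In-frame isoforms, which share codons with the main ORF through other exons, were listed in 13 of the 55 families, a share of 23.6% (13.2 to 37.0), where 23.1% of all families had one. Eif1 had 5 ORFs from a single start. Its forms of 228 and 113 codons scored 979, and those of 32, 72 and 114 codons scored 707, 693 and 501. The 113-codon form has the length of the main ORF of its relative Eif1b. Eif4h had forms of 248, 228 and 186 codons, all at 989, and Eif5b had forms of 1216 and 1172 codons, both at 979. Since forms with a common start often share 1 score, such equal values do not show that each form was translated.

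ORFs in another frame within the main span were found in 4 of the 55 families, a share of 7.27% (2.02 to 17.6), where 8.62% of all families had one. In Eif4e a 12-codon ORF scored 762 and an 8-codon ORF 642, both under the main score of 990. In Eif4e2 a 97-codon ORF scored 927, a 24-codon ORF 678 and a 9-codon ORF 515, against 987 for the main ORF. Eif4g2 had 5, of which those of 7, 48 and 11 codons scored 952, 845 and 764, against 762 for the main ORF. With its upstream ORF, Eif4g2 thus had 4 short ORFs above its main ORF. The 39-codon ORF of Eif2c3 scored 689. It and the ORFs of Eif4e2 were listed on other transcripts than the longest ORF. The class went by genome span and by sharing no codon, so overlap with main coding bases was not checked.

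No factor family had an ORF downstream of or over its main stop, 0 of 55 with an upper limit of 6.49%, where 2.11% of all families had one. A single ORF was listed for 32 of 55 factor families, a share of 58.2% (44.1 to 71.3), where 43.7% of all families had 1 ORF only. The share was higher still in the cytosolic ribosomal proteins, 75.9% of 79, and in the aminoacyl-tRNA synthetases, 65.0% of 20. The families with the most ORFs were Eif4g2 with 9, Eif2c3 with 7, Eif4e2 with 6, and Eif1 and Eif4g3 with 5 each. Some ORF outscored the main ORF in 9 of the 55 families, a share of 16.4% (7.77 to 28.8), where 19.8% of all families did so. These 9 were the 5 with a higher in-frame start and the 4 with a higher upstream ORF.

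Some factors are not listed under their own names. Of the 55 families, 50 carry a current symbol and 5 an older one, among them Eif3j2 for Eif3j1. The helicases Eif4a1 and Eif4a2 have no family of their own. The naming table places the small nucleolar RNA gene Snord2 inside Eif4a2, and the family Snord2 held ORFs of 407 and 377 codons at 979. It places Eif4a1 765 bases from Cd68, and the family Cd68 held a 406-codon ORF at 991. Whether these ORFs are those of Eif4a2 and Eif4a1 was not tested, and they are in no count above.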

How the data were processed

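The deposited list gives, per ORF, exon blocks, coding span and the authors' score, in mm9. Bowtie2, TopHat and mm9 are named in the submitters' processing notes, without versions. Neither the ORF caller nor the origin of the transcript models is given in the sources used here. No line scores under 500. The length named for all 22367 ORFs equalled their coding bases less the stop codon. Library depths are unknown. Families were taken from ORF names, the longest ORF (ties by score, then name) was the main ORF, and others were classed by frame and place. The class rules were run on simulated data, where 2400 of 2400 ORFs were put in their true class. All ORFs of a simulated family lay on the same exons. That check therefore does not cover families whose ORFs are listed on different transcripts. Python 3.11.15, pandas 2.3.3 and scipy 1.17.1 were used. Members and lists were chosen with earlier results of these data known, and the Argonaute group after their names were seen. Named genes were those with an extra start or ORF, the 5 extremes of ORF number, score and leader, and a few fixed genes. Others are named with their role group. RefSeq names, gene starts and windows are of GRCm38.p6 and were joined by symbol.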

Additional observations from a re-analysis of the deposited data

How the results depend on the processing

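Score and length cuts were applied to every ORF, main ORFs included, and shares are of the families left. The count of factor families with an ORF upstream of or over the main start was 8 of 55. It was 3 of 48 with scores of 900 or more (Eif2c3, Eif2d and Eif5, against 5.70% of 6784 families). Eif4g2 and Eif1ad, with upstream ORFs at 931 and 915, left it because their main ORFs, at 762 and 898, were cut. The count was 4 of 51 at or above the list's median score of 847 (7.92% of 7969). It was 5 of 55 with 30 codons or more (8.60% of 10308) and 5 among the 46 factor subunits. The count with another in-frame start, 7 of 55, was 0 of 48 at 900 or more (0.427% of 6784). The cut removed the longest forms of Eef1d, Eif3k and Eif3m, and their starts at 985, 944 and 944 became main ORFs. That 0 thus does not mean that no other start scored 900 or more. The count was 1 of 51 at or above the median (Eif4e2, 1.20% of 7969). It was 0 with 1 ORF per stop codon, which leaves no such pair by construction. The count with an ORF within the main span, 4 of 55, was 1 of 48 at 900 or more (0.929% of 6784). It was 1 of 51 at or above the median (1.48% of 7969), both times Eif4e2. Eif4g2, with such an ORF at 952, left both counts because its main ORF was cut. The count was 2 when the best-scoring ORF of a family was its main ORF (6.08% of all). The median main score lay between 969 and 972 and the median leader between 134 and 176 bases under every alternative run. Matching to RefSeq protein lengths was planned and not run, since no protein table was used here. No paired analysis was possible because the list holds no value per library. The list names 1 score per ORF for all libraries, so depth and replicate error are unknown.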

Other observations

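Other genes of the translation machinery were described from lists chosen with earlier results known. Of 9 release, recycling and reinitiation genes in the naming table, 7 were listed, with a median main score of 976, and 3 families had an ORF upstream of or over the main start, where 20.2% of all families did. These were Hbs1l, which acts in the rescue of stalled ribosomes, Denr, a reinitiation factor, and Pelo. In the family Pelo the main ORF had 1179 codons and a 385-codon ORF lay within its span, so which of them encodes the rescue factor of that name was not tested. The upstream ORF of Hbs1l had 16 codons and a score of 909, and that of Denr 20 codons and 654.

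All 6 genes of poly(A)-binding protein and its partners were listed, with a median main score of 887. Another in-frame start was listed for 4 of them, Pabpc1, Pabpc4, Paip1 and Paip2b, where 23.0% of all families had one. Of 10 mitochondrial translation factors, 10 were listed, with a median main score of 953.5, and Mtrf1, a release factor, had a 5-codon upstream ORF at 848. Of 7 genes of eIF2 phosphorylation, namely 4 kinases, 2 phosphatase subunits and the stress transcription factor Atf4, all but Eif2ak2 were listed. The listed ORF of Atf4 had 59 codons and a score of 952, and that of Ppp1r15a 26 codons and 953. Each was the main ORF only because no longer ORF was listed. Ppp1r15b, a subunit that directs the phosphatase to eIF2, had upstream ORFs of 51 codons at 990 and 8 codons at 921, against 823 for its main ORF of 697 codons.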
